A study of Mus musculus with 29 samples.

Results

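Aminoacyl-tRNA synthetases are the enzymes that join each amino acid to its tRNA. Their RNA levels were described across mouse B cells, lymph node tumours and fibroblasts in which Myc activity differed. The set holds 36 genes, chosen by symbol: 20 enzymes of the cytosol and 16 of mitochondria, whose symbols end in 2. All 36 had a row in every file, among 21819 genes in the B cell files and 21675 in the fibroblast files, and all 36 passed the filter on low values in every comparison.

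The 3 tumour libraries came from lymph nodes of Eμ-myc transgenic C57BL/6 mice, pressed through strainers with no further purification, and the labels give no age for these mice. The 4 Eμ-myc spleen libraries and the 4 wild-type (WT) spleen libraries came from B cells of C57BL/6 mice of 6 to 8 weeks, enriched with B220 beads. In Eμ-myc mice an immunoglobulin heavy chain enhancer drives Myc in the B lineage, so that tumour and transgenic spleen share the transgene. The 18 fibroblast libraries came from 3T9 fibroblasts of E13.5 embryos of mixed strain. All of them, the 0 h controls included, carried floxed alleles of the endogenous gene (c-mycflox/flox) and MycER, a fusion of Myc with a hormone-binding domain that 4-hydroxytamoxifen (OHT) activates. Total RNA was read in 4 libraries each at 0 h (ethanol) and after 4, 8 and 16 h in 400 nM OHT. Newly made RNA, captured after a pulse of 10 min in 300 µM of the nucleoside 4-thiouridine (4sU), was read in 1 library each at 0 and 4 h. Values are FPKM, fragments per kilobase of gene scaled to library size, which allow genes to be compared per length within a library. The labels do not say whether replicates came from separate animals or cultures, so p-values measure the spread between these samples.

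Each synthetase recognises 1 amino acid and the tRNAs that carry its codons, and the charged tRNA is what the ribosome uses to extend a protein. In mammals most amino acids have a nuclear gene for a cytosolic enzyme and another for a mitochondrial enzyme, while Gars and Kars each encode the enzyme of both compartments. Several cytosolic enzymes sit in the multisynthetase complex, held together by the scaffold proteins Aimp1, Aimp2 and Eef1e1. Myc is a transcription factor that binds E-box sequences with its partner Max and is known to raise genes of cell growth.

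Promoter sequence is given for 7 members whose windows held a motif that was searched, so that the match can be seen in place. Kars and Dars, which rose in both Eμ-myc groups below, have windows with none of these motifs. RefSeq promoter windows of build GRCm38.p6, with 250 bases before and 50 after the annotated start, matched 27 of the 36 genes, 13 cytosolic and 14 mitochondrial. Cars, Hars, Lars, Nars, Rars, Vars, Wars, Hars2 and Pars2 were not matched. Each sequence runs 5′ to 3′ on the gene's strand from 150 bases before the start to base 30 after it. Capitals mark the canonical E-box CACGTG, which is its own reverse complement, the variant E-box CGCGTG or its reverse complement CACGCG, and the amino acid response motif TGATGNAA or its reverse complement TTNCATCA. The first 4 are cytosolic enzymes and the last 3 mitochondrial ones.
Eprs (chr1:185362894-185363073, plus strand): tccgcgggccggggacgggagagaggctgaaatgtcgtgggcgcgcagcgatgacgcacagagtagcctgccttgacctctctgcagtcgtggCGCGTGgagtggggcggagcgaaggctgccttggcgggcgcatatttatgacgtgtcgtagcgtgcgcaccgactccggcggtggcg
Gars (chr6:55037851-55038030, plus strand): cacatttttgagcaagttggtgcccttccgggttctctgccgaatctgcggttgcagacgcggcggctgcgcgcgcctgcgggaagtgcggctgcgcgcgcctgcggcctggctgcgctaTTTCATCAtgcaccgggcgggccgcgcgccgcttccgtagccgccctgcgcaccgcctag
Aars (chr8:111033692-111033871, plus strand): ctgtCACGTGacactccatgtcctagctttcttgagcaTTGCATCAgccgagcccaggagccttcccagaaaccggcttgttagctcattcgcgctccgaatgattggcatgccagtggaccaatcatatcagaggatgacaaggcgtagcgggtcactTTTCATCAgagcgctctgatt
Tars (chr15:11399629-11399808, minus strand): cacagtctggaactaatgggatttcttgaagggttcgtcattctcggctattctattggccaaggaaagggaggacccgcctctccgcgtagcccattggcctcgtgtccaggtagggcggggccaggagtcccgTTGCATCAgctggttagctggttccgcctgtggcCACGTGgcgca
Iars2 (chr1:185329372-185329551, minus strand): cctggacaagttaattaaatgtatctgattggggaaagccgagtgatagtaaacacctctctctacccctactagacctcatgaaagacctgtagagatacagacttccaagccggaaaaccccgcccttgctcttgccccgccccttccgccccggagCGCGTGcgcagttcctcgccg
Mars2 (chr1:55237027-55237206, plus strand): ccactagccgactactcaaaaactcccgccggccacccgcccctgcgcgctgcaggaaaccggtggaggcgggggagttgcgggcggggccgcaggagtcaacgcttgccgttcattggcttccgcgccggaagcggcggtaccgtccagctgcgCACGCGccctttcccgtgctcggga
Ears2 (chr7:122067057-122067236, minus strand): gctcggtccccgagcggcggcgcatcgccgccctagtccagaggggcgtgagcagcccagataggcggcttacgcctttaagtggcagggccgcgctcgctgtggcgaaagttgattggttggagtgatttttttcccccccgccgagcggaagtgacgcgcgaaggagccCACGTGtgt

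The canonical E-box stood in 4 of 13 cytosolic windows (Aars, Farsb, Iars and Tars) and in 1 of 14 mitochondrial windows (Ears2), against 8.09% of 27025 genes with a window. The variant E-box stood in 5 of 13 (Eprs, Farsa, Mars, Tars and Yars) and 2 of 14 (Iars2 and Mars2), against 10.5% of genes. The amino acid response motif, the site of Atf4 and its partners, stood in 5 of 13 (Aars, Gars, Iars, Tars and Yars) and 0 of 14, against 4.51% of genes. Matches to different motifs shared no base in any of the 12 member windows that held one. Positions count from 1 at the start, with negative numbers before it. Eprs held its variant E-box at -57, Mars2 at 6 and Iars2 at 10, and Ears2 held the canonical E-box at 22. Tars held a variant E-box at 29, which runs past the printed end. A match describes letters in the window and is no measure of binding.

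Libraries differed in ways that touch these values. The spacing of low FPKM values gave a denominator of 0.802 to 1.43 M reads in the B cell files and 16.6 to 16.9 M in the 16 total RNA fibroblast files. The 2 sets thus stand on different scales and were never compared with each other. The denominator is not the depth: estimated reads on genes were 8.26 to 15.3 M in the B cell files and 13.1 to 18.1 M in those fibroblast files. How the B cell denominator was set is not given in the sources used here. The least covered member had 98.2 to 299 reads per library in the B cell files and 153 to 357 in those fibroblast files by this estimate. Fibroblast values were compressed at the top, with Actb and Gapdh between 100.8 and 150.1 FPKM, and how this arose is not given in the sources used here. A fold change of a high fibroblast gene may be understated. Tumour replicate 3 stood apart: its 9 B cell markers summed to 1705 FPKM, against 20651 and 21460 FPKM in the other tumours, so that it went against its B cell label. Its 8 T cell markers summed to 10042 FPKM, against 405 and 1082 FPKM. Cd3e, a T cell marker in that list, did not follow the sum, at 62.8 FPKM in replicate 3, against 38.6 and 143.1 FPKM in tumour replicates 1 and 2. The B cell markers summed to 26659 to 39208 FPKM in Eμ-myc spleen and 38703 to 43089 FPKM in WT spleen. Markers of pancreas and salivary gland summed to 3436, 5847 and 15448 FPKM over 11 genes in the tumours, to 30.6 to 37.6 FPKM in Eμ-myc spleen and to 48.2 to 154 FPKM in WT spleen. Psp was listed at 0 in all Eμ-myc spleens and Smr3a in all WT spleens. Plasma cell markers (6 genes) summed to 1103 to 2471 FPKM in tumours and 2478 to 4709 FPKM in Eμ-myc spleen, against 6349 to 8991 FPKM in WT spleen. Macrophage markers (9 genes) summed to 904 to 1746 FPKM in tumours and 2293 to 6000 FPKM in Eμ-myc spleen, against 4264 to 7862 FPKM in WT spleen. NK cell markers (8 genes) summed to 140 to 224 FPKM in tumours and 55.1 to 411 FPKM in Eμ-myc spleen, against 467 to 840.4 FPKM in WT spleen. In tumours 7 of 9 macrophage and 7 of 8 NK cell markers were called lower than in WT spleen. Another 1 of the macrophage markers was called higher. Of all genes, 17.7% were called lower and 20.3% higher in that comparison. T cell markers summed to 48.1 to 191 FPKM in Eμ-myc spleen, against 212 to 375 FPKM in WT spleen. Fibroblast markers (10 genes) summed to 2932 to 4663 FPKM in tumours and 2226 to 5322 FPKM in Eμ-myc spleen, against 1224 to 1854 FPKM in WT spleen, where Lum was listed at 0. Vim alone made up nearly all of the spleen sums, at 2178 to 5260 FPKM in Eμ-myc spleen and 1177 to 1808 FPKM in WT spleen. The higher sum in Eμ-myc spleen is thus a change of Vim. Of the fibroblast markers, 10 of 10 were called higher in tumours and 1 of 7 tested in Eμ-myc spleen. The shares of all genes called higher there were 20.3% and 15.7%. The part of these other cells in the results was not tested. Myc itself, the check of the labels, read 2123, 2178.8 and 1759.4 FPKM in the tumours, 1017.4, 1275.4, 2407.9 and 1524.7 FPKM in Eμ-myc spleen and 226.6, 273.3, 215 and 190.7 FPKM in wild-type spleen. In fibroblasts the Myc row fell by 1.15, 0.94 and 1.27 on the log2 scale at 4, 8 and 16 h (limma adjusted p = 0.000875, 0.00811 and 0.000239), and since these files do not separate MycER from endogenous Myc RNA, the row does not check the activation.

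In WT spleen, cytosolic synthetases were the higher class. Their median over genes was 324 FPKM and that of the mitochondrial enzymes 122 FPKM, against 94.8 FPKM over all genes at 1 FPKM or more. All 20 cytosolic members and 9 of 16 mitochondrial ones stood above that median. Vars, the valine enzyme, was highest at 1248 ± 201 FPKM (SD, n = 4), followed by Eprs, the fused glutamate and proline enzyme, at 554 ± 53.9 FPKM, Sars (serine) at 541.7 ± 13.3 FPKM and Dars (aspartate) at 523 ± 61.1 FPKM, and among these last 3 each neighbour in the order differed by less than the larger of their SDs. The lowest cytosolic member was Cars (cysteine) at 135 ± 11.9 FPKM. The lowest of all were Pars2 (50.3 ± 6.66 FPKM), Wars2 (55.2 ± 10.7 FPKM) and Aars2 (57.9 ± 6.72 FPKM), the mitochondrial proline, tryptophan and alanine enzymes, where again only neighbours in the order (Pars2 and Wars2, Wars2 and Aars2) differed by less than their SDs. Fibroblasts at 0 h had another order on their own scale, with Tars (threonine, 95.0 ± 9.53 FPKM), Gars (90.2 ± 5.69 FPKM) and Kars (90.1 ± 7.78 FPKM) at the top, no further apart than their SD (n = 4). The classes' medians there were 66.0 FPKM for cytosolic and 18.2 FPKM for mitochondrial enzymes, the second level with the 18.2 FPKM median of all genes at 1 FPKM or more.

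The first comparison asked what differs with the Eμ-myc transgene in spleen B cells. Most cytosolic synthetases rose: 16 of 20 were higher in Eμ-myc than in WT spleen and 0 were lower, where 15.7% of 14021 genes tested were called higher and 12.2% lower (limma on log2(FPKM + 0.5), Benjamini-Hochberg over all genes, called at adjusted p under 0.05). Of mitochondrial synthetases, 2 of 16 were higher (Sars2 and Iars2) and 0 lower. The median log2 fold change was 0.62 for the cytosolic class and 0.25 for the mitochondrial class, against -0.05 over all genes tested. Fold changes here are ratios of FPKM + 0.5, and in bulk libraries fewer cells of a type and less RNA per cell cannot be told apart. At an unadjusted p under 0.05, 0 members of either class were lower.

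Kars, the lysine enzyme, had the largest fitted change of the cytosolic class. It read 583.5, 567.2, 1021.2 and 906.8 FPKM in Eμ-myc spleen, against 325.2, 341.9, 337.1 and 418.9 FPKM in wild-type spleen, and every Eμ-myc library was above every WT one (log2 fold change 1.07 ± 0.21 SE, adjusted p = 0.00703). Eprs read 845.9, 1006.1, 1328.1 and 1016.6 FPKM in Eμ-myc spleen, against 550.9, 570.6, 483.3 and 612.5 FPKM in wild-type spleen, also without overlap (0.91 ± 0.16 SE, adjusted p = 0.00519). Rars charges arginine tRNA. It read 479.6, 531.7, 761.1 and 669.4 FPKM in Eμ-myc spleen, against 324.8, 307.7, 313.6 and 346.5 FPKM in wild-type spleen (0.89 ± 0.16 SE, adjusted p = 0.0051). Dars, for aspartate, read 770.8, 865.6, 979.9 and 1050.7 FPKM in Eμ-myc spleen, against 556.4, 516.9, 439.7 and 578.6 FPKM in wild-type spleen (0.81 ± 0.15 SE, adjusted p = 0.00587). Neither gene's groups overlapped. Farsb, the beta subunit of the phenylalanine enzyme, read 534.7, 532.9, 620 and 705.7 FPKM in Eμ-myc spleen, against 400.6, 345.7, 370 and 381.3 FPKM in wild-type spleen (0.67 ± 0.13 SE, adjusted p = 0.00754). Farsa, its alpha subunit, rose as well (0.55 ± 0.16 SE, adjusted p = 0.0314). The other cytosolic members called higher, Gars, Hars, Iars, Yars, Mars, Nars, Lars, Aars, Qars and Tars, had log2 fold changes of 0.55 to 1.05. Exon bases of Farsb are shared with Sgpp2 on the opposite strand (11.3%), and those of Aars with Exosc6 on the same strand (23.1%), so that their reads may not be separable. Sgpp2 overlapped between genotypes, at 149.8, 120.4, 45 and 72.9 FPKM in Eμ-myc spleen and 138.1, 105.5, 105.8 and 121.1 FPKM in wild-type spleen, while Exosc6 read 110.2, 121, 259.7 and 250.9 FPKM in Eμ-myc spleen and 78.6, 106.1, 76.4 and 100.5 FPKM in wild-type spleen, without overlap.

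Of the mitochondrial enzymes, Iars2, for isoleucine, read 362.8, 359.3, 497 and 486.8 FPKM in Eμ-myc spleen, against 274, 305, 321.1 and 322.5 FPKM in wild-type spleen, with no overlap (0.47 ± 0.15 SE, adjusted p = 0.04). Its exons share 30.5% of their bases with Rab3gap2 on the opposite strand, and the strand used in counting is not given. Rab3gap2 read 219, 192.6, 194.7 and 178.9 FPKM in Eμ-myc spleen and 223.7, 206, 254.9 and 208.4 FPKM in wild-type spleen, with no Eμ-myc library above the WT range. Sars2, for serine, read 84.4, 109.7, 178.2 and 154.9 FPKM in Eμ-myc spleen, against 71.3, 76.9, 91.5 and 64.2 FPKM in wild-type spleen, and 1 Eμ-myc library lay within the WT range (0.74 ± 0.23 SE, adjusted p = 0.0388). Yars2, for tyrosine, did not pass, though its groups did not overlap: it read 116.8, 111.9, 180.4 and 158.7 FPKM in Eμ-myc spleen, against 84.5, 111.2, 87.6 and 105.3 FPKM in wild-type spleen (0.53 ± 0.18 SE, adjusted p = 0.0552).

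**Figure D1:**
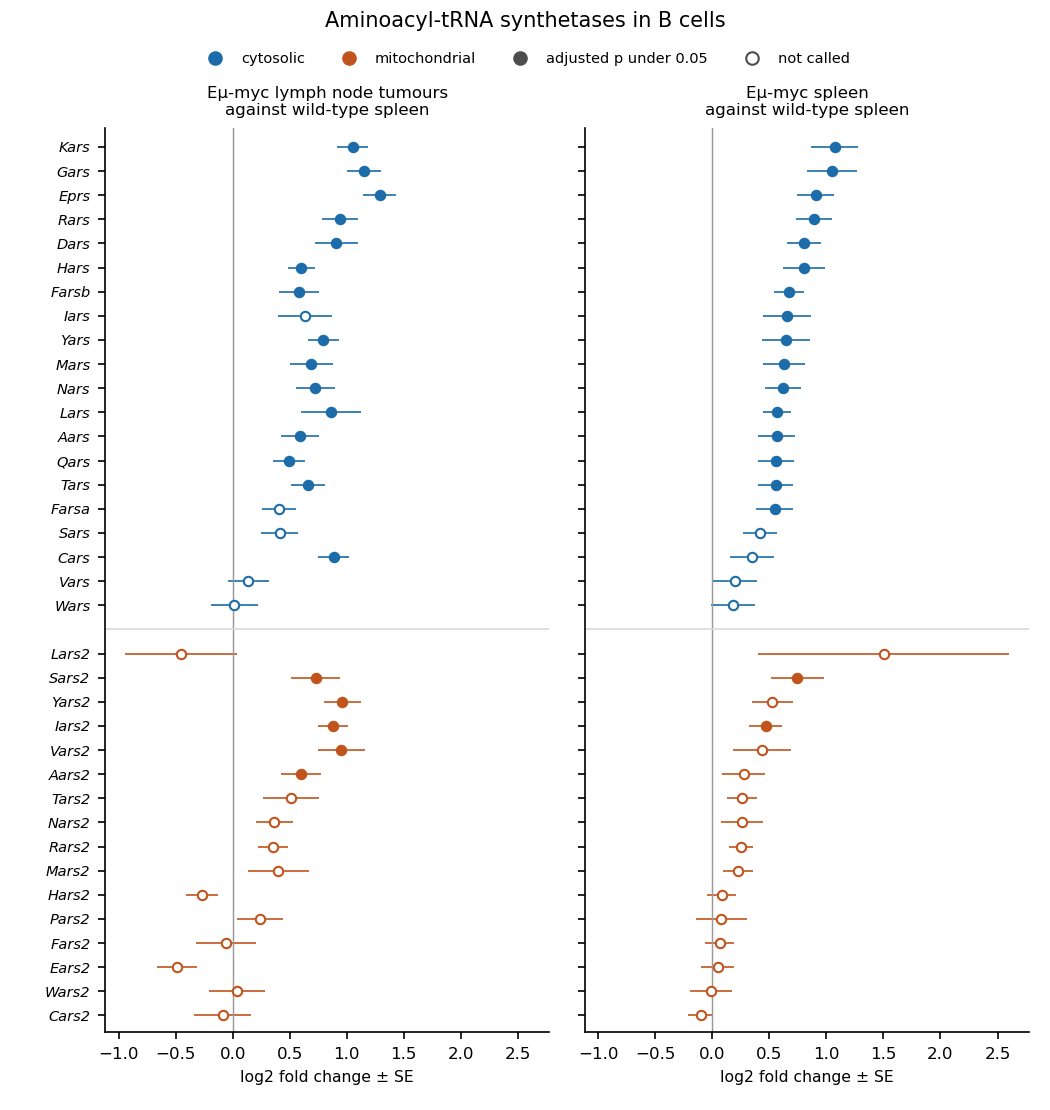
Log2 fold change of FPKM + 0.5 (x axis) with its SE for each synthetase (rows) in Eμ-myc lymph node tumours (left) and Eμ-myc spleen (right) against wild-type spleen. Filled points passed adjusted p under 0.05. Filled points are 15 of 20 cytosolic and 5 of 16 mitochondrial members on the left and 16 and 2 on the right, all above 0.

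The spleen counts rested on several libraries. Without WT replicate 1, 3 or 4, 8, 9 and 8 cytosolic members were called, where 10.0%, 11.3% and 9.42% of all genes were called higher. Without Eμ-myc replicate 5, 9 were called, where 10.3% of all genes were. No mitochondrial member was called without WT replicate 1, 3, 4 or 6 or Eμ-myc replicate 4 or 5. Without WT replicate 6 and without Eμ-myc replicate 4, 12.0% and 11.4% of all genes were called higher. Calls of Kars, Eprs, Rars, Dars, Farsb, Gars, Hars and Lars stood in all of these fits. Spleen libraries also fell into 2 sets by Rpph1, the RNA of ribonuclease P. It read 545353 and 633095 FPKM in Eμ-myc replicates 2 and 3 and 698889 and 735331 FPKM in WT replicates 1 and 3, against 208019 and 215865 FPKM in Eμ-myc replicates 5 and 4 and 153474 and 210796 FPKM in WT replicates 6 and 4. Within the high set (2 against 2), 8 cytosolic and 0 mitochondrial members were called higher, with class medians of 0.43 and 0.24 on the log2 scale, where 6.39% of all genes were called higher. Within the low set 13 and 2 were called, with medians of 0.82 and 0.24, where 13.7% of all genes were. With the set as a term of the fit over all 8 libraries, an alternative chosen after seeing the data, 17 and 4 were called, where 18.7% of all genes were. Cytosolic log2 fold changes were above 0 for 19 of 20 members in the high set and 20 of 20 in the low set.

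Tumours were then compared with WT spleen. Here 15 of 20 cytosolic and 5 of 16 mitochondrial synthetases were higher and 0 of either class lower, where 20.3% of 14758 genes tested were called higher and 17.7% lower (limma). The class medians were 0.68 and 0.36 on the log2 scale, against 0.05 over all genes. Cytosolic members higher in both Eμ-myc groups numbered 14, and both comparisons share the WT libraries. Cars was called in tumours alone and Farsa and Iars in spleen alone, which does not show that tumours and spleen differ in them. At an unadjusted p under 0.05, 1 member was lower, Ears2.

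Eprs had the largest change, at 1323.8, 1451.3 and 1280 FPKM in the tumours, against 550.9, 570.6, 483.3 and 612.5 FPKM in wild-type spleen (1.29 ± 0.15 SE, adjusted p = 0.000530). Gars, the glycine enzyme, read 912.1, 874.8 and 823.1 FPKM in the tumours, against 341.7, 389.3, 377.5 and 463.6 FPKM in wild-type spleen (1.15 ± 0.15 SE, adjusted p = 0.000876). Kars read 726.3, 711.6 and 765.2 FPKM in the tumours, against the WT values above (1.05 ± 0.14 SE, adjusted p = 0.00102). In each of these 3 genes all tumours stood above all WT spleens, and the tumours lay close together. Cars read 277.4, 235 and 236.3 FPKM in the tumours, against 137.4, 119, 147.8 and 135.3 FPKM in wild-type spleen (0.89 ± 0.14 SE, adjusted p = 0.00209). Rars read 615.6, 760.1 and 512.9 FPKM in the tumours (0.94 ± 0.16 SE, adjusted p = 0.00301). Both were again without overlap.

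Mitochondrial enzymes called higher were Iars2, Yars2, Vars2, Sars2 and Aars2. Iars2 read 601.9, 510 and 576.8 FPKM in the tumours (0.88 ± 0.13 SE, adjusted p = 0.00176), and Rab3gap2 on the opposite strand 212.2, 177.9 and 181.2 FPKM in the tumours. Yars2 read 211.3, 186.8 and 169 FPKM in the tumours (0.96 ± 0.16 SE, adjusted p = 0.00298). Vars2, for valine, read 154, 155.4 and 181.5 FPKM in the tumours, against 71, 68, 109.9 and 93.8 FPKM in wild-type spleen (0.95 ± 0.20 SE, adjusted p = 0.00823). No tumour overlapped the WT spleens in these 3 genes. Exon bases of Vars2 are shared with Gm20483 over 6.69% of their length. Sars2 and Aars2 had log2 fold changes of 0.73 ± 0.21 and 0.60 ± 0.18 SE. Without tumour replicate 3, the library with the low B cell and high T cell marker sums, 16 cytosolic and 6 mitochondrial members were called higher. Their medians were 0.62 and 0.40, and 22.9% of all genes were called higher in that fit. The mitochondrial count was 3 of 16 without tumour replicate 2, where 17.5% of all genes were called higher. It was also 3 without WT replicate 1, 3 or 6, where 16.0%, 17.0% and 16.8% were. Ears2 was called lower without tumour replicate 1 (78.4, 55.4 and 69.1 FPKM in all 3 tumours), where 16.6% of all genes were called lower. Markers of pancreas, salivary gland and fibroblasts moved with the tumours, and their part in these counts was not tested.

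**Figure D2:**
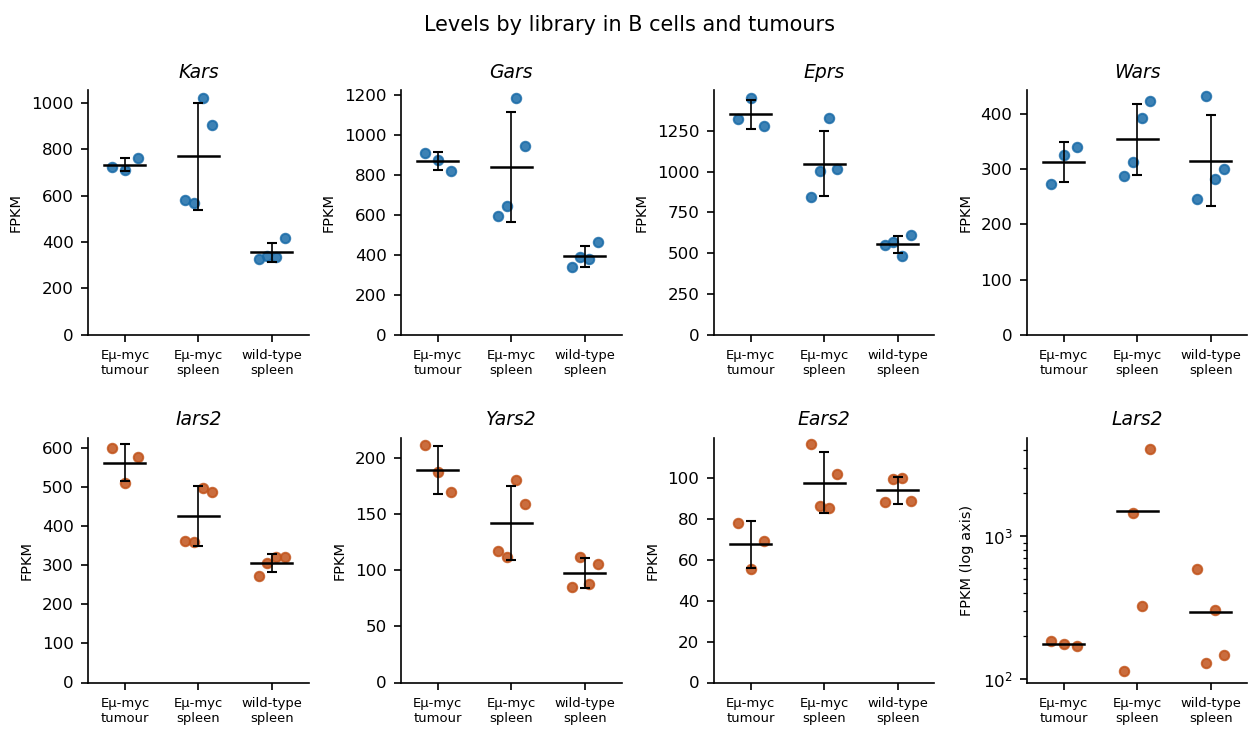
FPKM (y axis, log axis for Lars2) of 4 cytosolic (top) and 4 mitochondrial (bottom) synthetases in each library of the tumours (n = 3), Eμ-myc spleen (n = 4) and wild-type spleen (n = 4). Lines are means and bars SD, with no bar for Lars2. Kars, Gars, Eprs and Iars2 of both Eμ-myc groups lie above every wild-type library, Wars overlaps, and Lars2 spans 113 to 4106 FPKM.

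No synthetase was called between tumours and Eμ-myc spleen. The count was 0 of 36 in either direction, where 3.56% of 14692 genes were called higher and 2.39% lower (limma). Over all genes this was 523 higher and 351 lower, and 364 and 369 after quantile normalization. At an unadjusted p under 0.05, Ears2 alone was lower in tumours, and 0 members were higher. Class medians were 0.04 and 0.11 on the log2 scale, against 0.02 over all genes. SEs of the cytosolic members ran from 0.20 to 0.33, so changes of that size were not detectable. The smallest adjusted p of the cytosolic class was that of Cars, with 129.7, 143.8, 238.1 and 192.5 FPKM in Eμ-myc spleen beside the tumour values above (0.54 ± 0.24 SE, adjusted p = 0.216). Eprs followed (0.38 ± 0.21 SE, adjusted p = 0.323). Lars, for leucine, read 502.1, 427.9 and 955.3 FPKM in the tumours, with replicate 3 high, against 445.3, 429.1, 560.1 and 495.5 FPKM in Eμ-myc spleen (0.30 ± 0.29 SE, adjusted p = 0.576). Hars, for histidine, read 401.3, 396 and 425.4 FPKM in the tumours, against 355.3, 390.7, 617.2 and 564.3 FPKM in Eμ-myc spleen (-0.20 ± 0.23 SE, adjusted p = 0.65). Wars, given below, had -0.17 ± 0.20 SE (adjusted p = 0.663). Of mitochondrial members, Ears2 (-0.53 ± 0.22 SE, adjusted p = 0.187), Iars2 (0.41 ± 0.20 SE, adjusted p = 0.252) and Hars2 (-0.35 ± 0.17 SE, adjusted p = 0.261) had the smallest adjusted p.

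Of the 36, 14 were called in neither comparison with WT spleen: 3 cytosolic and 11 mitochondrial. Vars, the member with the highest level in WT spleen, read 1416.7, 1408.6 and 1261.3 FPKM in the tumours, 1198.7, 1168.2, 1817 and 1586.2 FPKM in Eμ-myc spleen and 1047, 1117.8, 1482.3 and 1343.3 FPKM in wild-type spleen, and all groups overlapped. Wars, for tryptophan, read 273, 325.7 and 340.2 FPKM in the tumours, 287.1, 313.4, 392.3 and 423.8 FPKM in Eμ-myc spleen and 245.8, 433.3, 283 and 299.7 FPKM in wild-type spleen, and the highest library was a WT one. Sars read 891.1, 611.4 and 688.6 FPKM in the tumours, 643.7, 601.6, 808.1 and 874.1 FPKM in Eμ-myc spleen and 544.4, 526.2, 538 and 558.2 FPKM in wild-type spleen. Every Eμ-myc library of Sars stood above the WT libraries, but its adjusted p was 0.0577 in spleen and 0.0743 in tumours.

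The 11 mitochondrial members were mixed. Ears2, for glutamate, read 78.4, 55.4 and 69.1 FPKM in the tumours, 116.9, 86.6, 85.6 and 102.4 FPKM in Eμ-myc spleen and 88.3, 99.6, 100.1 and 88.8 FPKM in wild-type spleen. Its tumours lay below both other groups (adjusted p = 0.0593 against WT). Hars2, for histidine, read 126.4, 124.8 and 111.6 FPKM in the tumours, 140.9, 138.9, 169.5 and 169.5 FPKM in Eμ-myc spleen and 137.7, 138.9, 166.4 and 141.3 FPKM in wild-type spleen, with tumours again lowest (adjusted p = 0.159). Hars2 shares exon bases with Hars on the opposite strand, 5.85% of its own and 9.80% of those of Hars. Rars2, for arginine, read 225.4, 291 and 246.3 FPKM in the tumours, 250.7, 241.7, 230.3 and 216.2 FPKM in Eμ-myc spleen and 205.1, 194.5, 199.8 and 189.9 FPKM in wild-type spleen, with every Eμ-myc library above the WT ones (adjusted p = 0.0643 in tumours and 0.1 in spleen). Nars2, for asparagine, read 112.7, 105.6 and 98.5 FPKM in the tumours, 122.9, 115.2, 83.2 and 77.9 FPKM in Eμ-myc spleen and 93.3, 84.3, 83.2 and 68.2 FPKM in wild-type spleen, and tumours stood above WT spleen (adjusted p = 0.115). Tars2, for threonine, read 445.7, 228.4 and 235.3 FPKM in the tumours, 250.7, 204.9, 276.2 and 242 FPKM in Eμ-myc spleen and 192.7, 190.9, 234.8 and 192.1 FPKM in wild-type spleen, with 1 tumour far above the rest. Mars2, for methionine, read 273.2, 415.5 and 187.2 FPKM in the tumours, 228.7, 244.1, 248.8 and 258.8 FPKM in Eμ-myc spleen and 181.1, 184.4, 235.9 and 245.1 FPKM in wild-type spleen, with tumours spread over the widest range. Pars2 read 63.5, 65.4 and 49.5 FPKM in the tumours, 39.8, 42.5, 60 and 75.8 FPKM in Eμ-myc spleen and 48.3, 43.5, 49.9 and 59.4 FPKM in wild-type spleen. Wars2 read 71.2, 44.3 and 55.5 FPKM in the tumours, 62.5, 52.5, 46.2 and 56 FPKM in Eμ-myc spleen and 67.2, 46.8, 61.2 and 45.5 FPKM in wild-type spleen. Both overlapped in all groups. Cars2, for cysteine, read 153.2, 93.7 and 199.3 FPKM in the tumours, 137.4, 139.1, 136.7 and 149 FPKM in Eμ-myc spleen and 148.2, 142.7, 172.2 and 142.8 FPKM in wild-type spleen. Fars2, for phenylalanine, read 167.9, 116.5 and 258.2 FPKM in the tumours, 183.6, 192.3, 199.4 and 172.7 FPKM in Eμ-myc spleen and 189.2, 198.9, 185.1 and 145.9 FPKM in wild-type spleen. In both the tumours spread more widely than the spleen libraries and overlapped with them.

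Lars2, for leucine, was unlike the others. It read 184.5, 174.9 and 169.5 FPKM in the tumours, 112.6, 1461.8, 322.2 and 4105.7 FPKM in Eμ-myc spleen and 588, 129, 303.7 and 146.6 FPKM in wild-type spleen. Single spleen libraries of both genotypes were high, and tumours lay close together (adjusted p = 0.333 for Eμ-myc and 0.499 for tumours against WT spleen). What sets these values was not tested.

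Class medians were also read in each library. The cytosolic median stood above the mitochondrial one by 1.67 to 1.84 on the log2 scale in tumours, by 1.80 to 1.89 in Eμ-myc spleen and by 1.21 to 1.52 in WT spleen. Relative to the median of all genes, the cytosolic class stood at 2.43 to 2.78 in tumours and 2.44 to 2.97 in Eμ-myc spleen, against 1.98 to 2.14 in WT spleen. The mitochondrial class stood at 0.65 to 1.05 in tumours and 0.56 to 1.10 in Eμ-myc spleen, against 0.53 to 0.77 in WT spleen, and overlapped between all groups. Of the 8 enzymes of the multisynthetase complex (Dars, Eprs, Iars, Kars, Lars, Mars, Qars and Rars), 8 rose in Eμ-myc spleen and 7 in tumours, with medians of 0.73 and 0.89. Of the 12 cytosolic members outside it, 8 rose in each comparison, with medians of 0.56 and 0.60. Of all genes, 15.7% were called higher in Eμ-myc spleen and 20.3% in tumours, with medians of -0.05 and 0.05. The difference between enzymes inside and outside the complex was not tested.

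**Figure D3:**
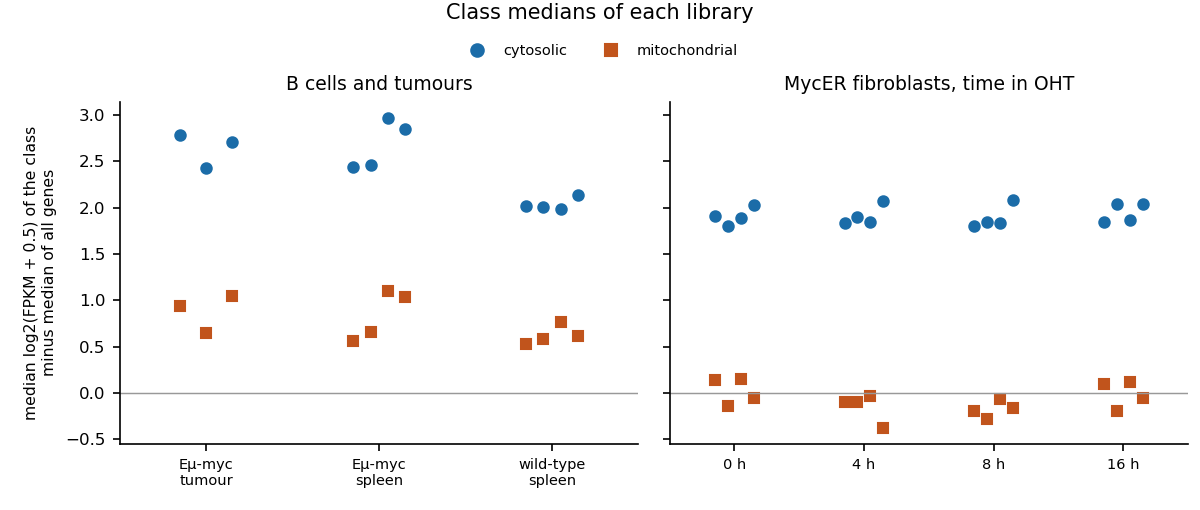
Median log2(FPKM + 0.5) of the 20 cytosolic and 16 mitochondrial synthetases minus the median of all genes at 1 FPKM or more in at least 3 libraries (y axis), for each library of the B cell and tumour groups (left) and the fibroblast times (right). In tumours and Eμ-myc spleen the cytosolic points lie at 2.43 or higher, above the wild-type points, and the fibroblast points of all times overlap.

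Genes that work beside the synthetases were read from lists, whose counts stand against the 15.7% of all genes called higher in Eμ-myc spleen and 20.3% in tumours. Of the 3 complex scaffolds, 3 rose in Eμ-myc spleen and 2 in tumours. Eef1e1 averaged 391 ± 67.4 FPKM in tumours (n = 3) and 392 ± 85.2 FPKM in Eμ-myc spleen, against 169 ± 19.2 FPKM in WT spleen (SD, n = 4 each), and Aimp2 285 ± 53.2 FPKM in tumours and 282 ± 77.8 FPKM in Eμ-myc spleen, against 137 ± 14.3 FPKM in WT spleen. Of 26 genes of tRNA maturation and export, 18 rose in Eμ-myc spleen and 16 in tumours, with medians of 0.64 and 0.77 on the log2 scale, and 0 fell. Pus7, a tRNA pseudouridine synthase, averaged 405 ± 48.2 FPKM in tumours and 282 ± 56.7 in Eμ-myc spleen, against 91.0 ± 6.49 FPKM in WT spleen. Pop1, a protein of ribonuclease P, averaged 327 ± 39.9 FPKM in tumours and 180.2 ± 57.0 FPKM in Eμ-myc spleen, against 67.6 ± 8.94 FPKM in WT spleen. Each of these 4 genes passed the limma test in both comparisons, with adjusted p of 0.00782 or less.

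Of 4 synthetase-like and editing genes, 2 rose in spleen and 3 in tumours, among them Aarsd1, which removes serine wrongly joined to alanine tRNA (424.5 ± 99.2 FPKM in tumours and 300.2 ± 90.8 in Eμ-myc spleen, against 152 ± 15.8 FPKM in WT spleen), and Dtd1, which removes D-amino acids from tRNA (278 ± 48.3 FPKM in tumours and 253 ± 34.6 FPKM in Eμ-myc spleen, against 161 ± 16.1 FPKM in WT spleen). Of 5 genes of selenocysteine charging, 2 rose in each, Sephs1 and Sephs2, the selenophosphate synthetases.

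The response to amino acid shortage, in which Atf4 is known to raise synthetases, was read as a list too. Of its 15 measured genes, 6 rose in Eμ-myc spleen and 0 fell, with a median of 0.01 on the log2 scale. In tumours 9 of 16 rose and 1 fell, with a median of 1.66. Of all genes, 15.7% were called higher and 12.2% lower in Eμ-myc spleen, and 20.3% and 17.7% in tumours. Asns, the asparagine synthetase, averaged 319 ± 87.2 FPKM in tumours and 100.6 ± 52.9 in Eμ-myc spleen, against 17.9 ± 5.00 FPKM in WT spleen. Slc7a5, an amino acid transporter, averaged 604 ± 175 FPKM in tumours, against 76.6 ± 9.98 FPKM in WT spleen, and Phgdh, of serine synthesis, 426 ± 119 FPKM in Eμ-myc spleen, against 154 ± 24.0 FPKM in WT spleen. Ddit3 fell in tumours, at 113 ± 23.4 FPKM, against 160.1 ± 15.2 FPKM in WT spleen (adjusted p = 0.0463). Atf4 RNA was at 539 ± 163 FPKM in tumours, against 757 ± 32.8 FPKM in WT spleen, and did not pass (adjusted p = 0.0707). Between tumours and Eμ-myc spleen, 4 of the 16 were called higher, against 3.56% of all genes, among them Chac1 (20.4 ± 3.18 FPKM in tumours, against 3.38 ± 1.11 FPKM in Eμ-myc spleen) and Nupr1 (34.2 ± 20.8 FPKM in tumours, against 4.05 ± 1.99 FPKM in Eμ-myc spleen).

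In fibroblasts the question was what follows when MycER is switched on for 4, 8 or 16 h. Only 2 of the 36 synthetases passed the test at any time, both mitochondrial: Mars2, the methionine enzyme, rose and Ears2, the glutamate enzyme, fell. At 4 h, 1.90% of 12934 genes were called higher and 2.88% lower, at 8 h 1.21% and 0.982%, and at 16 h 1.76% and 7.75% (limma, all 16 libraries in 1 fit). After median ratio scaling these shares were 4.95% and 6.27% at 4 h, 4.14% and 3.36% at 8 h and 6.25% and 8.62% at 16 h. Of 20 cytosolic members, 0 were called at any time. At an unadjusted p under 0.05, 1 was lower at 16 h (Cars) and 0 moved at 4 or 8 h.

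Mars2 read 27.9, 27.5, 28.8 and 28.1 FPKM at 0 h, 46.8, 39.7, 62.0 and 52.6 FPKM at 4 h, 56.1, 45.8, 45.1 and 48.0 FPKM at 8 h and 48.3, 41.4, 48.5 and 38.6 FPKM at 16 h. Every treated library was above every 0 h library. The log2 fold changes were 0.81 ± 0.13, 0.78 ± 0.13 and 0.64 ± 0.13 SE (adjusted p = 0.000797, 0.00151 and 0.0033). Ears2 read 19.6, 20.9, 22.1 and 17.2 FPKM at 0 h, 12.6, 12.4, 16.7 and 9.38 FPKM at 4 h, 11.2, 11.7, 9.38 and 8.20 FPKM at 8 h and 13.0, 8.88, 10.2 and 7.85 FPKM at 16 h. Here every treated library was below every 0 h library, by log2 fold changes of -0.64 ± 0.18, -0.95 ± 0.18 and -0.98 ± 0.18 SE (adjusted p = 0.0466, 0.00683 and 0.00186). The Ears2 call at 4 h was lost on leaving out any 1 of the 8 libraries of 0 and 4 h other than OHT 4 h replicate 3, with adjusted p of up to 0.137. The calls at 8 and 16 h stood in all such fits. Ubfd1, whose exons overlap those of Ears2 on the opposite strand over 4.35% of its bases, read 15.9, 18.6, 17.7 and 21.3 FPKM at 0 h, 18.6, 23.8, 21.1 and 30.4 FPKM at 4 h, 21.7, 25.8, 21.6 and 20.4 FPKM at 8 h and 23.9, 16.8, 23.5 and 21.9 FPKM at 16 h, with no treated library below the lowest 0 h library. Between 16 and 4 h, 0 of the 12934 genes were called in either direction and 218 had an unadjusted p under 0.05, 0 of them synthetases.

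New RNA moved the same way in both genes. In 4sU-labelled RNA, with 1 library a time and no test, Mars2 read 18.9 FPKM at 4 h, against 7.31 FPKM at 0 h, and Ears2 2.11 FPKM at 4 h, against 4.20 FPKM at 0 h. The log2 ratios of FPKM + 0.5 were 1.31 and -0.85. These were the 2 members past a ratio of 1.5, where 4.83% of 12375 genes were past it upward and 3.52% downward. The medians were 0.08 for cytosolic and 0.04 for mitochondrial members, against 0.02 over all genes, and cytosolic members lay between -0.19 (Cars) and 0.33 (Farsa). In the B cell comparisons neither Mars2 nor Ears2 was called, with the values given above.

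**Figure D4:**
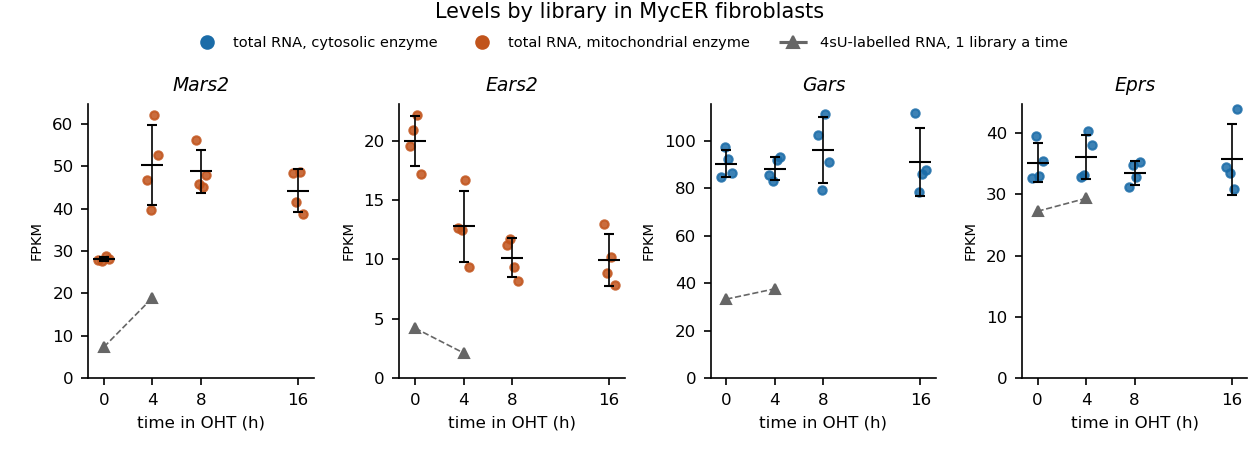
FPKM (y axis) against time in OHT (x axis, h) of 2 mitochondrial and 2 cytosolic synthetases in MycER fibroblasts. Circles are the 4 total RNA libraries of each time, with mean and SD, and triangles the 1 4sU library at 0 and 4 h. Mars2 lies at 27.5 to 28.8 FPKM at 0 h and at 38.6 FPKM or more afterwards, Ears2 at 17.2 FPKM or more at 0 h and at 16.7 FPKM or less afterwards, and Gars and Eprs overlap between times.

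No cytosolic member was called at any time, and their fold changes were small. Their means over the 16 libraries, 27.6 to 91.4 FPKM, lie nearer than those of the mitochondrial class (6.91 to 42.8 FPKM) to the compressed top of this scale, where 0.1% of genes exceeded 113 to 128 FPKM in a library, so that their fold changes may be understated more; this was not tested. The log2 fold changes ran from -0.23 to 0.17 at 4 h, -0.15 to 0.10 at 8 h and -0.26 to 0.08 at 16 h, with SEs of 0.11 to 0.16. The class medians were 0.00, -0.04 and -0.06, against -0.04, -0.06 and -0.14 over all genes. Median ratio scaling of the libraries brings the shift of all genes near 0 by design (0.00 at 16 h), so it does not tell what the shift was. No member's call differed under that scaling.

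At 4 h the smallest adjusted p of the class was that of Cars, which read 50.0, 59.9, 63.3 and 66.7 FPKM at 4 h, against 66.7, 66.9, 73.7 and 73.1 FPKM at 0 h (adjusted p = 0.309). Iars read 94.7, 77.8, 102 and 76.6 FPKM at 4 h, against 76.0, 75.0, 88.0 and 70.6 FPKM at 0 h (adjusted p = 0.532). Rars read 69.8, 102, 87.3 and 102 FPKM at 4 h, against 76.4, 80.5, 79.0 and 97.1 FPKM at 0 h (adjusted p = 0.762). All 3 overlapped with their 0 h libraries. Lars read 67.2, 96.2, 84.8 and 100.983 FPKM at 4 h, against 75.2, 77.5, 78.2 and 95.9 FPKM at 0 h, and Tars 80.7, 80.7, 99.1 and 102 FPKM at 4 h, against 87.8, 108, 87.6 and 97.0 FPKM at 0 h (adjusted p = 0.831 and 0.85). Rars2, the mitochondrial member that came after Mars2 and Ears2, read 28.0, 29.3, 35.1 and 24.8 FPKM at 4 h, against 28.8, 40.0, 32.7 and 35.4 FPKM at 0 h (adjusted p = 0.52).

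At 8 h Mars, the cytosolic methionine enzyme, read 64.2, 70.5, 68.7 and 68.1 FPKM at 8 h, against 72.4, 85.2, 71.4 and 72.7 FPKM at 0 h, and its groups did not overlap (adjusted p = 0.629). Tars read 80.8, 90.0, 85.7 and 92.0 FPKM and Cars 62.6, 69.4, 57.9 and 71.5 FPKM at 8 h (adjusted p = 0.739 and 0.789). Farsb read 45.9, 52.1, 42.9 and 58.3 FPKM at 8 h, against 43.8, 43.7, 50.4 and 47.3 FPKM at 0 h (adjusted p = 0.808). These overlapped, as did Gars, with 102, 79.4, 111 and 91.2 FPKM at 8 h, against 84.7, 97.2, 92.5 and 86.5 FPKM at 0 h (adjusted p = 0.844). Yars2 read 20.8, 28.5, 23.9 and 26.7 FPKM at 8 h, against 21.8, 21.0, 19.7 and 22.3 FPKM at 0 h (adjusted p = 0.538).

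At 16 h Cars read 66.0, 58.7, 61.1 and 49.7 FPKM, each below its 0 h libraries (adjusted p = 0.165). Hars read 43.8, 33.2, 40.4 and 35.970 FPKM at 16 h, against 44.6, 36.046, 50.9 and 38.9 FPKM at 0 h (adjusted p = 0.54). Aars, for alanine, read 67.7, 58.4, 66.3 and 52.9 FPKM at 16 h, against 66.9, 64.1, 67.6 and 69.0 FPKM at 0 h (adjusted p = 0.568). Both overlapped with 0 h. Yars read 72.5, 50.7, 55.2 and 57.2 FPKM at 16 h, against 58.5, 61.9, 61.4 and 75.1 FPKM at 0 h, and Nars 88.2, 66.4, 68.2 and 75.1 FPKM at 16 h, against 73.5, 76.8, 75.7 and 97.6 FPKM at 0 h (adjusted p = 0.6 and 0.622). Rars2 read 33.9, 24.3, 29.9 and 27.8 FPKM at 16 h (adjusted p = 0.347). The other mitochondrial members had no call at any time.

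**Figure D5:**
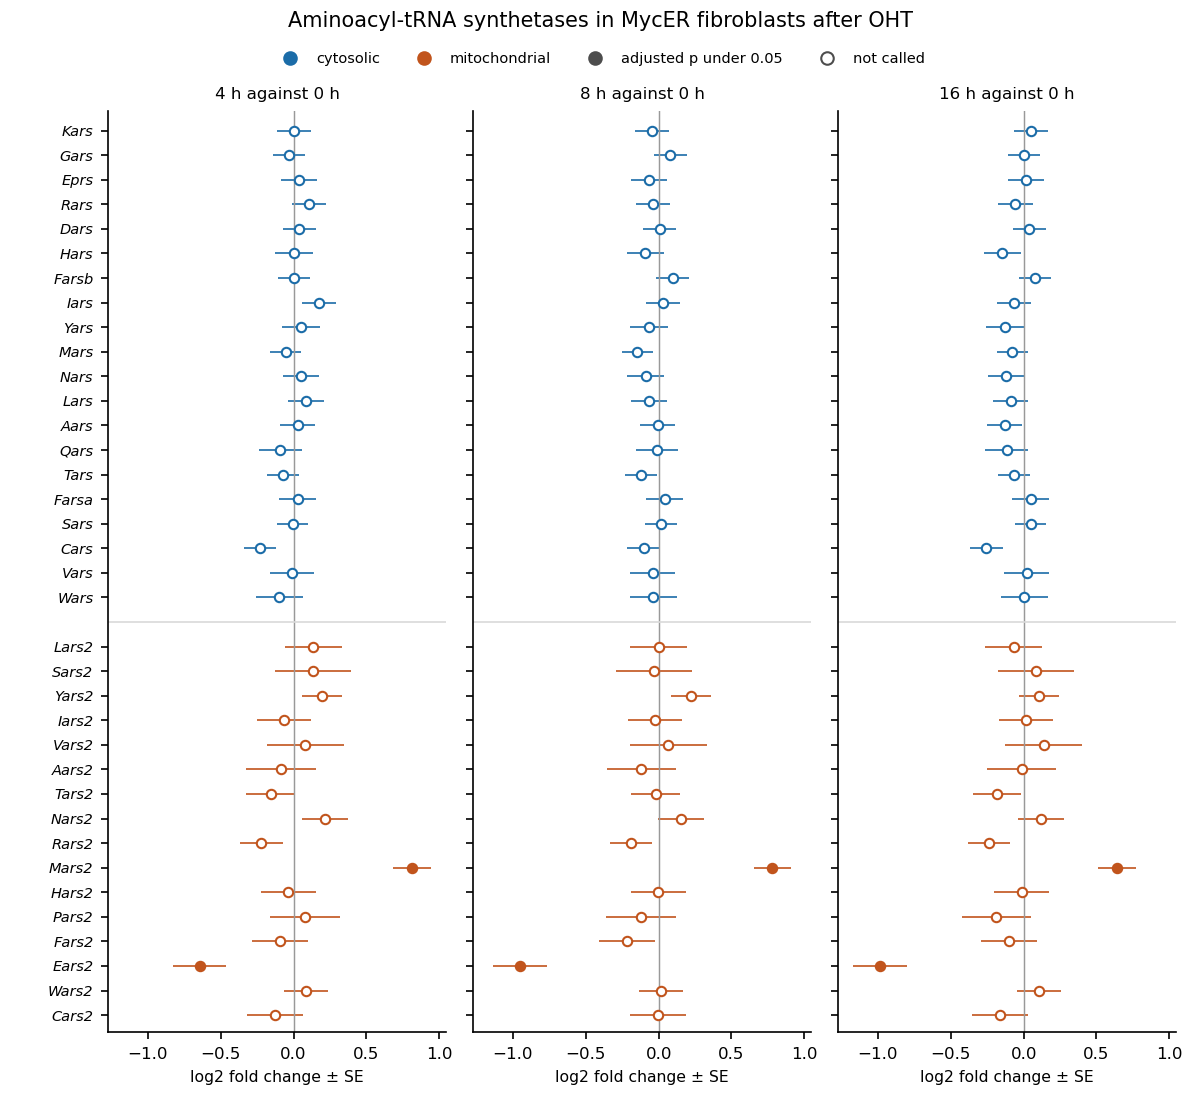
Log2 fold change of FPKM + 0.5 (x axis) with its SE for each synthetase (rows) at 4, 8 and 16 h of OHT against 0 h. Filled points passed adjusted p under 0.05. In each panel Mars2 (right of 0) and Ears2 (left of 0) are the filled points, and cytosolic members lie between -0.26 and 0.17.

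Within a time, several members moved together between fibroblast libraries. Over the 16 libraries, after each time's mean was taken off, Pearson's r was above 0.9 for 31 of 630 pairs of members, and the median r was 0.31. Nars and Rars had r = 0.99, and Lars and Nars r = 0.99. Other pairs moved in opposite directions, such as Sars and Vars2 (r = -0.92) and Sars and Aars2 (r = -0.91). These points share a library and its depth, and the values are a description with no test. The share of pairs above 0.9 over all genes was not computed, so the count has no background beside it. At 0 h Lars, Nars, Rars and Yars were each highest in replicate 4, and at 4 h each was lowest in replicate 1. Of the lists beside the synthetases, tRNA maturation had 1, 2 and 1 of 26 genes higher at 4, 8 and 16 h and 0 lower. Of all genes, 1.90%, 1.21% and 1.76% were called higher at these times. The tRNA maturation genes called were Rpp25 at 4 and 8 h and Rpp40, another ribonuclease P protein, at 8 and 16 h. Rpp40 averaged 27.3 ± 3.28 FPKM at 8 h and 25.7 ± 2.67 FPKM at 16 h, against 18.9 ± 1.53 FPKM at 0 h (SD, n = 4). Scaffolds, synthetase-like genes and selenocysteine genes had 0 calls at any time. Of 16 genes of the amino acid shortage response 0 were called at 4 h, 1 was lower at 8 h (Ddit4) and 2 at 16 h (Nupr1 and Vldlr). Of all genes, 2.88%, 0.982% and 7.75% were called lower at 4, 8 and 16 h.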

How the data were processed

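RNA was sequenced after ribosomal RNA depletion in 29 libraries. The authors deposited FPKM per gene in 1 file a library, on mouse build mm9. TopHat2 2.0.8, SAMtools and HTSeq 0.5.3p9 are named per the submitters' processing notes. The gene annotation, filters and use of strand are not given in the sources used here. The FPKM denominator of each library was estimated from the spacing of low FPKM values and gene lengths, and reads per gene were estimated from it.

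Groups came from the labels. The log2 of FPKM + 0.5 was tested with limma 3.58.1 (R 4.3.3, trended and robust variance) over genes that reached 1 FPKM in at least n libraries, n being the size of the smaller group. Benjamini-Hochberg adjustment ran over all genes tested, and a call is adjusted p under 0.05. B cell fits held only the 2 groups compared, and the fibroblast fit all 16 libraries. Labelled RNA, with 1 library a time, had no test and was set against a ratio of 1.5. Alternatives were 2 other pseudocounts, other filters, scalings and fits, the replicate number as a block, the Rpph1 set as a term (added after the data were seen), and dropping single libraries. The fit was also run on simulated data with noise drawn independently for each gene and library. That run holds no effects shared by the genes of a library, so it does not show how the fit handles them. Deviations from the group means correlated between same-numbered fibroblast libraries of 4 and 0 h (0.258, 0.195, 0.117 and 0.507 for numbers 1 to 4). For 8 and 0 h the values were 0.181, 0.203, 0.00636 and 0.437, and for 16 and 0 h 0.220, 0.155, 0.140 and 0.540. Number 4 was highest each time. These values, from the data alone, do not settle whether the libraries pair, and the reported fits were unpaired.

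Named members were, per comparison, the 5 cytosolic and 3 mitochondrial ones with the smallest adjusted p, any that fell, and any called in no B cell comparison. For the other lists they were the 2 smallest adjusted p in either direction, and Atf4 was added after its values were seen. Members and lists were chosen with earlier results of these data known. Exon overlaps came from GENCODE vM21 on GRCm38. One list of genes that work beside the synthetases is not reported here.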

Additional observations from a re-analysis of the deposited data

Results flagged for a closer look

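In a group of 4 libraries, 1 library was called far from the others where its gap to the nearest, divided by the group's range, passed 0.829. Of 216 member groups looked at, 12 passed, and chance gives about 1 in 20. In B cells these were the highest library of Iars in Eμ-myc spleen (0.874) and of Hars2 (0.875) and Tars2 (0.959) in WT spleen. In fibroblasts at 0 h they were the highest library of Lars (0.853), Mars (0.906) and Nars (0.863). At 4 h they were the highest library of Cars2 (0.854) and Hars2 (0.93). At 8 h they were the highest library of Dars (0.832) and Sars (0.978) and the lowest of Lars (0.876) and Pars2 (0.833).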

How the results depend on the processing

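No synthetase called in the reported fits reversed under any alternative run. In Eμ-myc against WT spleen, 16 cytosolic members were called higher. The count was 10 with all 3 B cell groups in 1 fit, 8 within the libraries high in Rpph1 and 0 with the replicate block. In these fits 10.6%, 6.39% and 4.1% of all genes were called higher. The 2 mitochondrial calls were 4 with the Rpph1 set as a term, a fit chosen after seeing the data, and 1 under quantile normalization. In these fits 18.7% and 14.5% of all genes were called higher. The mitochondrial count was 0 with no filter and without variance trend or robust fitting, where 10.9% and 13.7% of all genes were called higher. It was also 0 with all 3 groups in 1 fit, within the high Rpph1 libraries and with the replicate block, with the shares given above. Leaving out 1 library gave 8 to 17 cytosolic and 0 to 3 mitochondrial calls, where 9.42% to 18.8% of all genes were called higher. For tumours against WT spleen, the 15 cytosolic and 5 mitochondrial calls were 0 and 0 with the replicate block. That fit called 0 of all 14758 genes, so its counts say nothing of the synthetases. Leaving out 1 library gave 10 to 16 and 3 to 6, where 16.0% to 22.9% of all genes were called higher. The block leaves 1 residual degree of freedom in B cells. Groups there share 2 numbers, and the labels do not say what a number marks. Same-numbered spleen libraries correlated at 0.341 and 0.168 in their deviations from the group means, and in both genotypes the replicates numbered 3 or less were high and the others low in Rpph1, so pairing in the spleen libraries is not settled. Ears2 was called lower in tumours, making the count 1, under quantile normalization and with all 3 groups in 1 fit. In these fits 19.8% and 18.5% of all genes were called lower. The count of lower members in tumours was 0 to 1 on leaving out 1 library. In fibroblasts the 1 member lower at 4 h, Ears2, made 0 with a pseudocount of 0.1 and with no filter. In these fits 2.58% and 1.31% of all genes were called lower. The count at 4 h was 0 to 1 on leaving out 1 library. The replicate block changed no fibroblast member's call. Over single genes and alternatives, 255 calls of Eμ-myc spleen stayed past the threshold and 105 did not, 266 and 54 in tumours, 27 and 9 at 4 h, and 36 and 0 at each of 8 and 16 h. The cause of these changes was not tested. FPKM files carry no counts, so the tests do not weigh genes by read number.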
